A study of Mus musculus with 12 samples.

Results

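Class 3 semaphorins are secreted guidance proteins, and their receptors include the neuropilins, plexins of the A family and plexin D1. The genes described here are the 7 ligand genes Sema3a, Sema3b, Sema3c, Sema3d, Sema3e, Sema3f and Sema3g and the 3 receptor genes Nrp1, Nrp2 and Plxnd1. They were chosen by family membership, though with earlier results of these data known, and all 10 were found among the 53392 genes measured. Expression was measured by sequencing of polyadenylated RNA from mouse embryonic facial mesenchyme, in 12 libraries that formed 4 groups of 3 biological replicates on a 129S4 background. The first group held wild-type (Pdgfra+/+) palatal shelves at embryonic day E13.5. The second held palatal shelves of the same stage homozygous for the Pdgfra PI3K allele, a knock-in present in all cells whose receptor cannot recruit phosphatidylinositol 3-kinase. The third held maxillary processes at embryonic day E11.5 from Srsf3 fl/fl embryos without Cre. The last, labelled Srsf3 cKO and called cKO-labelled here, held maxillary processes of the same stage from Srsf3 fl/fl embryos with the Wnt1-Cre transgene, which acts in the neural crest lineage and leaves endothelium, blood and surface ectoderm untouched. Both maxillary groups carried the floxed alleles. In all 4 groups the overlying ectoderm had been digested with trypsin.

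Semaphorins of this class mostly bind a neuropilin, which holds the ligand, while a plexin of the A family or plexin D1 carries the signal into the cell and acts on small GTPases, integrins and the cytoskeleton. Sema3a binds mainly neuropilin 1 and Sema3f mainly neuropilin 2, Sema3c can use both, and Sema3e differs in that it binds plexin D1 directly. Neuropilins also bind vascular endothelial growth factors. In the embryonic face and the tissues around it, the family is known for guiding cranial axons, for steering migrating neural crest cells and for patterning blood vessels.

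The 10 mesenchyme markers checked, such as Prrx1 and Twist1, each reached 1 TPM (a level scaled for transcript length and depth) in at least 1 library of every group. Library totals ran from 30.5 M to 37.4 M estimated counts in the palatal shelf and from 15.9 M to 27.9 M in the maxillary process. The Srsf3 total was not lower in the cKO-labelled libraries (log2 fold change 0.03, 95% interval from -0.29 to 0.35), which does not check the deletion of part of the gene, so directions in that comparison rest on the labels. Pdgfra did not differ in total between the palatal shelf groups beyond the spread (log2 fold change 0.02, 95% interval from -0.22 to 0.26).

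Of the 7 ligand genes, 4 lie on the plus strand of mouse chromosome 5 (build GRCm38, GENCODE M21). They are Sema3d (ENSMUSG00000040254.11, 12383385 to 12588948), Sema3a (ENSMUSG00000028883.17, 13125414 to 13602565), Sema3e (ENSMUSG00000063531.7, 14025276 to 14256689) and Sema3c (ENSMUSG00000028780.13, 17574281 to 17730268), within a stretch of 5.35 Mb. Sema3b (ENSMUSG00000057969.15, 107597674 to 107609229) and Sema3f (ENSMUSG00000034684.12, 107681500 to 107710475) lie 0.0723 Mb apart on the minus strand of chromosome 9. Sema3g (ENSMUSG00000021904.6) is on chromosome 14, 31217860 to 31230352, plus strand. The receptors are scattered. Nrp1 (ENSMUSG00000025810.9) spans 128358604 to 128503363 on the plus strand of chromosome 8. Nrp2 (ENSMUSG00000025969.15) spans 62703285 to 62818695 on the plus strand of chromosome 1, and Plxnd1 (ENSMUSG00000030123.15) spans 115954811 to 115995005 on the minus strand of chromosome 6. Between 0% and 1.96% of the 31-base stretches in each gene's annotated transcripts also occur in the same direction in transcripts of other genes. Near-identical copies in that direction thus put few of their reads in doubt, and the opposite direction was not checked. Other gene models overlap Sema3a (4 models), Sema3d (2), Sema3e (3), Nrp1 (1) and Nrp2 (2), and whether counting used strand is not given in the sources used here.

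The promoters of Sema3a, Sema3d and Sema3e are shown because these neighbouring ligand genes were all higher in the palatal shelf than in the maxillary process, by very different amounts. Each is the run of 250 bases before the RefSeq start (build GRCm38, plus strand, 5′ to 3′), at chr5:13396534-13396783 for Sema3a, chr5:12382916-12383165 for Sema3d and chr5:14025026-14025275 for Sema3e. The promoter table matched 8 of the 10 genes, without Sema3b and Sema3f. Capitals mark matches, on either strand, to the TATA box (TATAAA), the CCAAT motif, the GC box (GGGCGG) or a forkhead motif (TGTTTAC), and no matches overlapped in these windows.
Sema3a: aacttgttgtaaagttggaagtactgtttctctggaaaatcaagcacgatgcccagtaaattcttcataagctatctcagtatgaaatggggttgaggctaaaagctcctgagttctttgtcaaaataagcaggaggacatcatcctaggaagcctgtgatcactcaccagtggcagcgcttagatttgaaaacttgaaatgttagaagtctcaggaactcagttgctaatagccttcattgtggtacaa
Sema3d: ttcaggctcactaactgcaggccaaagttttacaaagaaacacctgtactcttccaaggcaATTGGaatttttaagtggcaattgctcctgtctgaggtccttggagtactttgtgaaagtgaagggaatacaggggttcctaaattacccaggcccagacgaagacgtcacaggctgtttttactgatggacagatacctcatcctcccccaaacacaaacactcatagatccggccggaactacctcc
Sema3e: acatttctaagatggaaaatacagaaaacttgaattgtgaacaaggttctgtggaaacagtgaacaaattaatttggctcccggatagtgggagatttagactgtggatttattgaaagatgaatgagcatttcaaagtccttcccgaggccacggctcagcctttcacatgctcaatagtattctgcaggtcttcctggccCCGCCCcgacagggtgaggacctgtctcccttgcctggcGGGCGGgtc
The Sema3a window holds no match, the Sema3d window holds 1 CCAAT match and the Sema3e window holds 2 GGGCGG matches. Over 32851 windows of the same length before mouse RefSeq starts, 12.4% hold the TATA box, 33.8% the CCAAT motif, 32.7% the GC box and 3.17% the forkhead motif. Observed over expected CpG was 0.194 for Sema3a, 0.296 for Sema3d and 0.488 for Sema3e, against a median of 0.373 over all windows. The corresponding window of Sema3c held 3 GGGCGG matches and a CpG ratio of 1.02. The Sema3a window lies inside the annotated gene, before an internal start, and those of Sema3d and Sema3e lie before the gene. That of Sema3c lies inside its gene and overlaps 3 of its annotated exons, so it is not printed.

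The plot of levels shows each gene in all 12 libraries. In the control maxillary process the highest means were those of Nrp2 (102 TPM), Sema3f (101 TPM) and Plxnd1 (68.7 TPM), followed by Nrp1 (20.4 TPM) and Sema3a (17.5 TPM). The other 5 ligands were low there, from 2.94 TPM for Sema3c down to 0.149 TPM for Sema3e, which rests on 3 to 21 counts a library. Nrp2 and Sema3f overlapped in range, as did Nrp1 and Sema3a, and Sema3c, Sema3g, Sema3b and Sema3d could not be ranked because neighbouring ranges overlapped. In the wild-type palatal shelf Sema3f led (127 TPM), ahead of Plxnd1 (116 TPM), Nrp2 (79.6 TPM), Nrp1 (60.8 TPM), Sema3a (46.7 TPM) and Sema3d (40.4 TPM). Only 2 of these steps separated ranges that did not overlap: Plxnd1 from Nrp2, and Sema3d from the next gene, Sema3e (10.5 TPM). Sema3c (8.41 TPM), Sema3b (7.23 TPM) and Sema3g (3.74 TPM) were lowest, with overlapping ranges. In the mutants Sema3f led in PI3K libraries at 134 TPM and Plxnd1 in cKO-labelled libraries at 104 TPM, and each overlapped the next gene. Palatal shelf and maxillary TPM values come from tables made separately, so levels are set side by side here and tested on counts below.

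**Figure D1:**
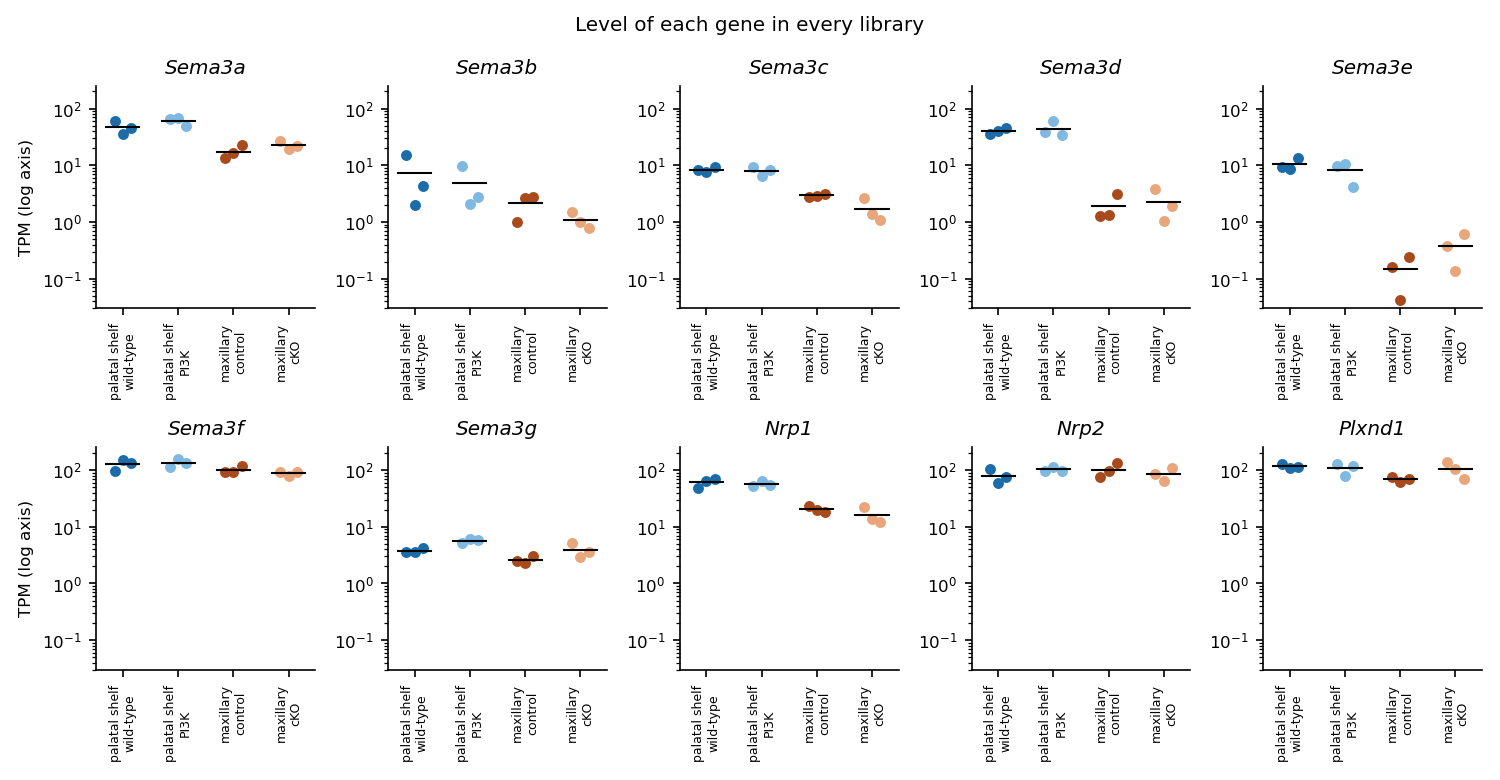
Each panel plots 1 gene, with TPM on a log axis, a point for each library and a line at the mean of its 3 libraries. Sema3d lies between 34.4 and 60.7 TPM in palatal libraries and between 1.02 and 3.77 TPM in maxillary ones, while Sema3f and Nrp2 overlap between the tissues.

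The comparison of wild-type palatal shelf with control maxillary process asked how the family differs between the early maxillary process and the shelf that later grows from it. In the palatal shelf 4 ligands and 1 receptor rose: Sema3e and Sema3d by very large factors, and Sema3a, Sema3c and Nrp1 by 2.26-fold to 2.66-fold. None of the 10 genes fell. Sema3f, the most abundant ligand, and its receptor Nrp2 did not pass the test. Stage, tissue, breeding colony with its floxed alleles and the lane tag in the labels all differ between these groups and cannot be told apart. In bulk tissue, more cells of a type and more RNA per cell cannot be told apart either.

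Of 15752 genes tested, 7965 (50.6%) passed a false discovery rate (FDR) of 0.05 in the edgeR quasi-likelihood test with Benjamini-Hochberg adjustment, 27.1% of all genes higher and 23.4% lower in the palatal shelf. All 10 genes passed the filter on low counts. The 5 calls among the 10 genes are thus near the background share in number, and all 5 were higher. On the CPM scale (counts scaled to a common library size by TMM) the groups did not overlap for 7 of the 10 genes, against 62.1% of all genes, and all 7 were higher, against 33.2%.

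Sema3e, the ligand of plexin D1, had 0.164, 0.0414 and 0.241 TPM in the control maxillary libraries and 9.40, 8.49 and 13.6 TPM in the wild-type palatal shelf. All palatal libraries lay far above all maxillary ones. On counts the log2 fold change was 5.90 (SE 0.40, 95% interval from 4.96 to 6.83, adjusted p = 7.543e-05, edgeR). The maxillary level is near 0, where an added pseudocount compresses a difference, and the value was 3.30 with limma on log2(TPM + 1). Sema3d, a ligand known from heart and vessel development, had 5.15, 5.27 and 11.4 CPM in the controls and 111, 136 and 137 CPM in the palatal shelf, again without overlap. Its log2 fold change was 4.11 (SE 0.30, adjusted p = 0.0001014, edgeR), a factor of 17.3.

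Sema3a, which repels axons and migrating crest cells through neuropilin 1, had 36.8, 45.9 and 52.5 CPM in the controls and 129, 78.2 and 98.6 CPM in the palatal shelf. Its log2 fold change was 1.17 (SE 0.20, adjusted p = 0.002658, edgeR). Sema3c, best known for its part in the outflow tract of the heart, had 9.90, 10.1 and 9.88 CPM in the controls against 25.6, 23.1 and 23.7 CPM. Both groups were tight and the log2 fold change was 1.27 (SE 0.11, adjusted p = 0.0001801, edgeR).

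Nrp1, the co-receptor shared by Sema3a and vascular endothelial growth factor A, had 52.8, 43.8 and 36.9 CPM in the controls and 96.2, 124 and 135 CPM in the palatal shelf. The groups did not overlap, with a log2 fold change of 1.41 (SE 0.17, adjusted p = 0.0006356, edgeR). Nrp2, the main Sema3f receptor, had 304, 394 and 501 CPM in the controls and 374, 205 and 270 CPM in the palatal shelf. Its groups overlapped and the test was not passed (log2 fold change -0.50, SE 0.25, adjusted p = 0.1304, edgeR), but it was passed without wild-type library 1 (-0.73, adjusted p = 0.04746, with a range from 0.04746 to 0.8251 over the alternatives). Plxnd1, the signalling receptor of Sema3e, had 276, 274 and 255 CPM against 334, 293 and 324 CPM. These ranges did not overlap, yet the log2 fold change of 0.24 (SE 0.09, adjusted p = 0.05306, edgeR) missed the threshold.

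The remaining ligands also missed it. Sema3b had 2.18, 3.39 and 3.18 CPM in the controls and 21.4, 2.63 and 6.19 CPM in the palatal shelf, so that 1 library made most of the log2 fold change of 1.78 (adjusted p = 0.06708, edgeR), which was 0.61 without it. Sema3g, a mostly endothelial ligand, had 6.67 to 7.85 CPM against 8.84 to 10.3 CPM (log2 fold change 0.38, adjusted p = 0.07757, edgeR). Sema3f had 130, 130 and 150 CPM against 134, 183 and 160 CPM (log2 fold change 0.22, 95% interval from -0.07 to 0.51, adjusted p = 0.182, edgeR). An FDR of 0.1 would add Plxnd1, Sema3b and Sema3g to the calls, making 8 of 10, against 58.7% of all genes.

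**Figure D2:**
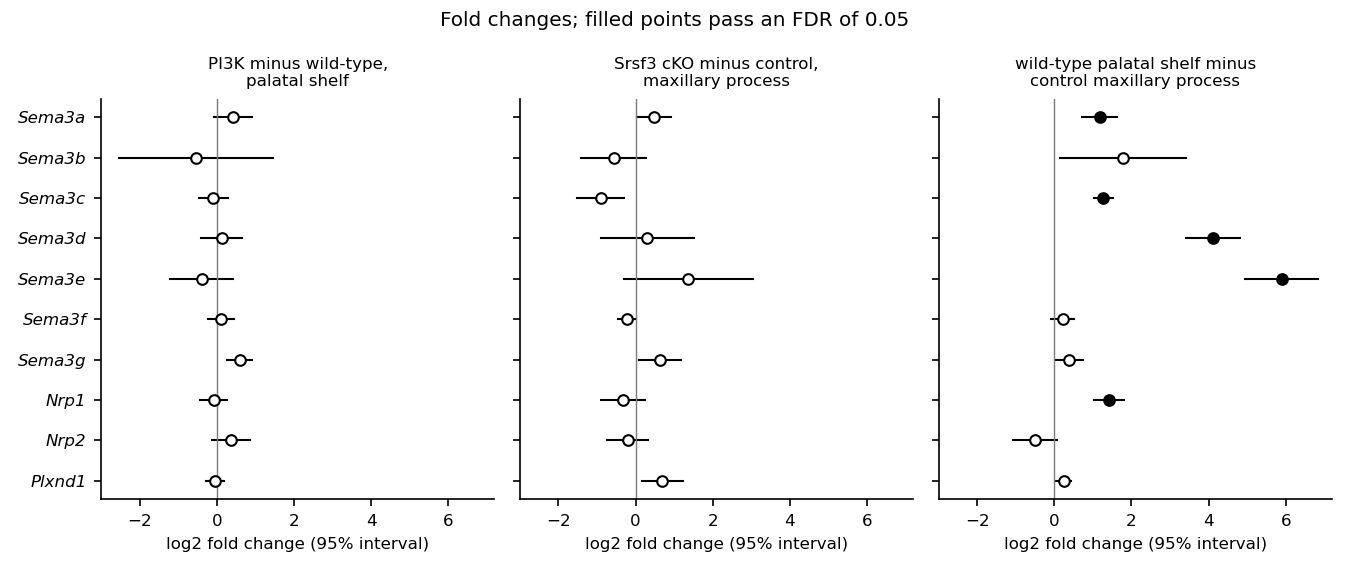
Each panel plots, for 1 comparison, the log2 fold change of the 10 genes with its 95% interval, and filled points passed an FDR of 0.05 in edgeR. No point is filled in the PI3K or Srsf3 cKO panels, and 5 are filled in the tissue panel, led by Sema3e at 5.90 and Sema3d at 4.11.

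The same contrast was repeated with the 6 libraries it had not used, PI3K palatal shelf against maxillary cKO-labelled libraries, an alternative chosen after seeing the data. There 43.3% of 15948 genes passed, 23.4% of all genes higher. Of the 10 genes, 7 rose and 0 fell: Sema3d (log2 fold change 3.94), Sema3e (4.17), Sema3c (2.07), Nrp1 (1.63), Sema3a (1.09), Sema3b (1.77) and Sema3f (0.53, adjusted p = 0.009363, edgeR). Sema3b passed narrowly (adjusted p = 0.04898, edgeR). Nrp2 (0.05) and Plxnd1 (-0.52, adjusted p = 0.09886, edgeR) had the opposite sign there and neither passed, so no direction is given for them.

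Markers of another tissue rose in the same comparison. Although the ectoderm had been digested, 13 of 13 ectoderm markers rose in the palatal shelf, among them the keratin Krt14, picked with its value in view (log2 fold change 10.1, adjusted p = 1.358e-05, edgeR). Their summed level was 628 to 854 TPM in wild-type palatal shelves and 1.86 to 8.83 TPM in control maxillary processes, where 10 of the 13 were under 1 TPM in every library. By library, the sums were 840, 899 and 398 TPM in PI3K palatal shelves, with Sema3e at 9.59, 10.6 and 4.19 TPM, and the third library was lowest in both. In wild-type shelves the sums were 628, 783 and 854 TPM with Sema3e at 9.40, 8.49 and 13.6 TPM, and in the controls 8.83, 3.02 and 1.86 TPM with 0.164, 0.0414 and 0.241 TPM. Within these groups the library with the lowest sum was not the one with the lowest Sema3e, and among the controls it had the highest. Maxillary cKO-labelled libraries had 10.5 to 19.9 TPM. Sema3a, Sema3c, Sema3d and Nrp1 likewise lay without overlap between all palatal and all maxillary libraries. In PI3K library 3, Sema3d (34.4 TPM) and Sema3a (49.0 TPM) were also lowest of their group. Sema3c (8.31 TPM) and Nrp1 (54.5 TPM) were not lowest there in TPM, but narrowly were in CPM. Sema3c had 29.1, 20.6 and 20.2 CPM and Nrp1 107, 130 and 106 CPM in PI3K libraries 1, 2 and 3. The part of ectoderm in these results and in that of Sema3e was not tested. Sema3b was highest in wild-type library 1 (15.4 TPM) and PI3K library 1 (9.66 TPM), the libraries with the highest summed osteochondrogenic markers of their groups (1819 and 1058 TPM, against 273 to 552 TPM in the other palatal libraries), and the part of those cells was not tested. Of other marker lists, 8 of 10 macrophage and 6 of 16 endothelial markers rose with 0 lower, and 2 of 10 red blood cell markers rose and 6 fell. Their part in the Nrp1 and Sema3g values was not tested.

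**Figure D3:**
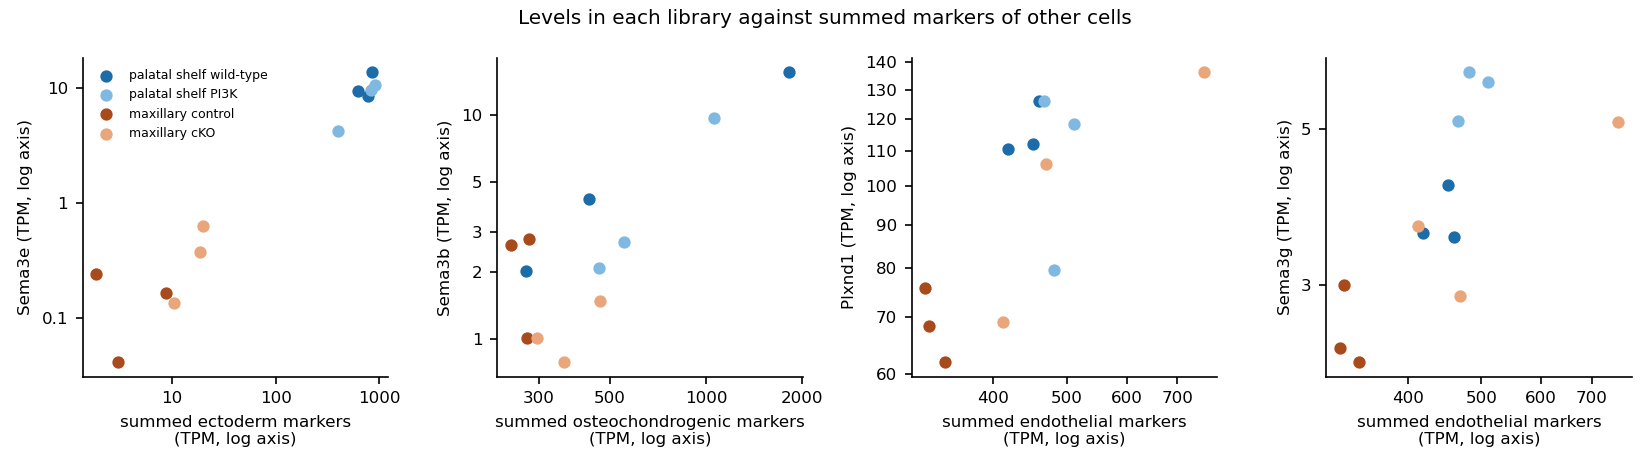
Each point is 1 library, with the level of a gene (TPM, log axis) against the summed level of a fixed marker list (TPM, log axis). Sema3e separates with the ectoderm sum, from 0.0414 to 0.625 TPM where the sum is under 20 TPM and from 4.19 to 13.6 TPM where it is 398 TPM or more, Sema3b is highest in the libraries with the highest osteochondrogenic sums, and the control maxillary libraries hold the lowest endothelial sums. Sema3a, Sema3c, Sema3d and Nrp1, which also separate the tissues, are not plotted.

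Adding the ligands up shows how the mix differed. The summed level of the 7 ligands was 115, 116 and 154 TPM in control maxillary processes and 229, 248 and 254 TPM in wild-type palatal shelves. Sema3f made up 79.0% ± 2.24 (SD, n = 3) of the ligand total in the controls and 51.8% ± 8.97 in the wild-type palatal shelf, without overlap between the groups (77.4% to 81.6%, and 42.6% to 60.5%). The share of Sema3d was 1.41% ± 0.52 in the controls and 16.5% ± 1.30 in the palatal shelf, and that of Sema3a ran from 11.7% to 14.6% and from 14.2% to 26.2%. The Sema3f share was 50.5% ± 5.09 in PI3K libraries and 73.4% ± 3.17 in cKO-labelled ones (SD, n = 3 each). The ratio of Nrp2 to Nrp1 on the TPM scale ran from 3.15 to 7.46 in the controls and from 0.914 to 2.14 in the wild-type palatal shelf.

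**Figure D4:**
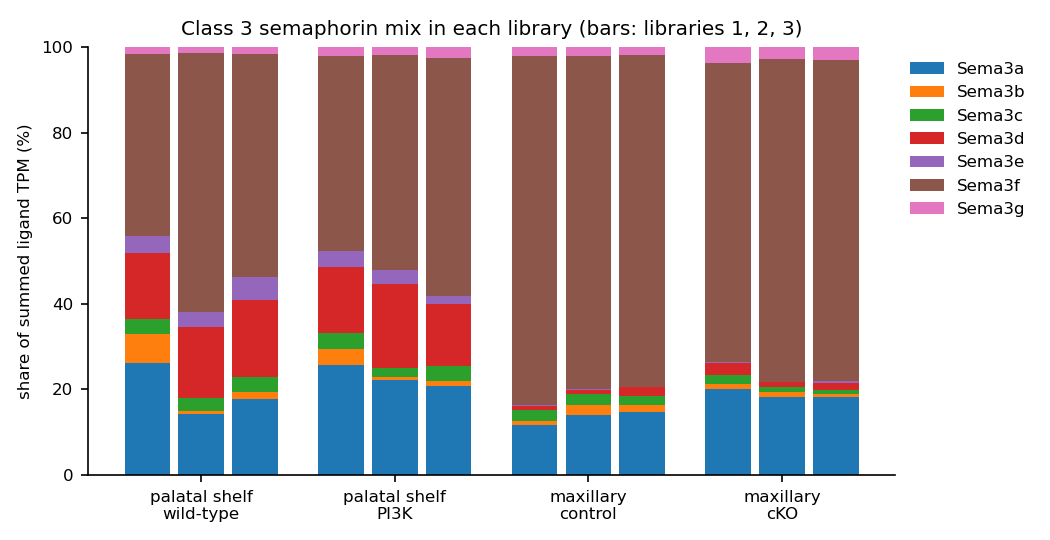
Bars show the share (%) of each ligand in the summed TPM of the 7 ligands, 1 bar for each library. Sema3f takes 77.4% to 81.6% of the total in control maxillary processes and 42.6% to 60.5% in wild-type palatal shelves, where Sema3d takes 15.3% to 17.9%.

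The 4 ligand genes on chromosome 5 all rose, and the genes between them were listed. The stretch from Sema3d to Sema3c holds 77 gene models, 21 of them protein-coding, and 10 had enough counts to test. Besides the 4 ligands, 3 protein-coding genes were tested, and the genes named here were picked with values in view. Pclo, a presynaptic scaffold gene (log2 fold change 2.08, adjusted p = 0.0008589, edgeR), and Cacna2d1, a calcium channel subunit gene (1.88, adjusted p = 0.0005501), rose, while Hgf, the ligand of the Met receptor, missed the threshold (1.03, adjusted p = 0.05058). Of the 3 other models tested, 2 rose. Gm8925, a pseudogene on the opposite strand within Sema3d, had a log2 fold change of 3.92 (adjusted p = 0.01547, edgeR), close to that of its host. Whether it overlaps exons of Sema3d was not checked, and without strand the reads of stretches shared by both could not be told apart. The interval was examined because its ligands had risen, so its share is a description, beside 27.1% of all genes.

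**Figure D5:**
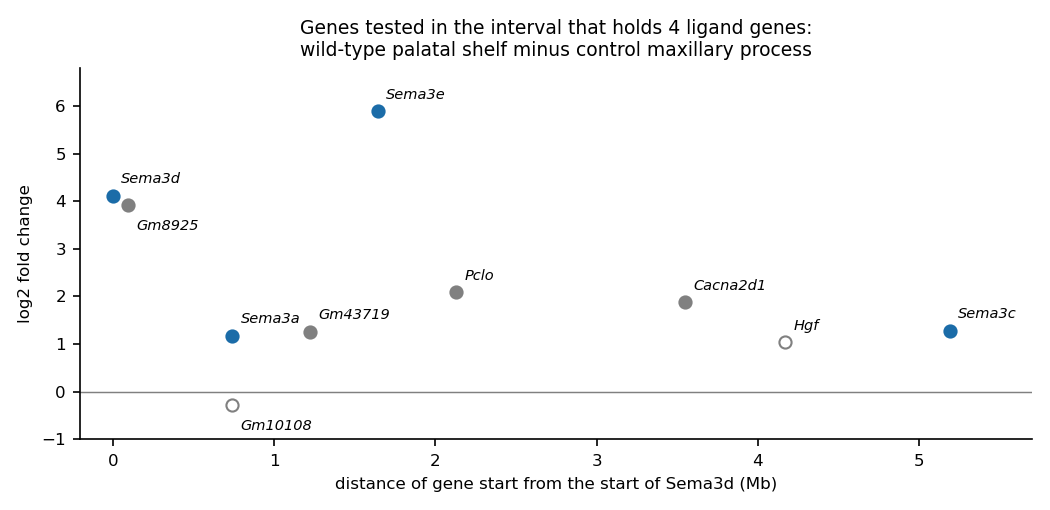
The log2 fold change of each tested gene between wild-type palatal shelf and control maxillary process is plotted against the distance of its start from that of Sema3d (Mb). Ligand genes are blue, filled points passed an FDR of 0.05 in edgeR, and of the 10 genes Hgf and Gm10108 are open.

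The partners of the family were read in the same fit, where 27.1% of all genes rose and 23.4% fell. Of the 8 other plexins, 4 rose and 1 fell. Among the A plexins, which pair with neuropilins, Plxna3 rose (log2 fold change 0.73, adjusted p = 0.009934, edgeR) and Plxna1 rose slightly (0.28, adjusted p = 0.04669). Plxna2 (-0.21) and Plxna4 (-0.55) did not pass. Plxnb3, a receptor for class 5 semaphorins, rose from 0.228 ± 0.125 to 1.41 ± 0.171 CPM (SD, n = 3 each; log2 fold change 2.55, adjusted p = 0.002633, edgeR). Of the 13 semaphorins of other classes 6 rose and 1 fell. Of 8 co-receptors 5 rose and 1 fell. Cntn2, a neuronal adhesion gene, was among those that rose (2.33, adjusted p = 0.002648, edgeR), and the adhesion gene L1cam fell (log2 fold change -1.59, adjusted p = 0.0004263, edgeR).

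Of 23 intracellular effectors of plexins, 8 rose and 5 fell. Mical2, an enzyme that takes actin filaments apart, rose from 1.63 ± 0.369 to 50.4 ± 2.60 CPM (mean ± SD of 3 libraries), or 4.95 on the log2 scale (SE 0.16, adjusted p = 5.832e-06, edgeR). Dpysl5, of the collapsin response mediator family, rose from 4.23 ± 0.690 to 28.3 ± 6.70 CPM (2.73, adjusted p = 0.0001304, edgeR). Of the 8 genes of vascular endothelial growth factor ligands and receptors, 2 rose and 1 fell: Vegfa, the growth factor that competes for neuropilin 1 (0.83, adjusted p = 0.005484, edgeR), and Pgf (2.02, adjusted p = 0.001568) rose, and Vegfd fell (-1.90, adjusted p = 0.03057). L1cam, Plxnb1, Pgf and Vegfd were outside the rule for naming genes and were picked with their values in view. Plxnb1 was the plexin that fell (log2 fold change -0.42, adjusted p = 0.0415, edgeR).

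The comparison of Srsf3 cKO with control maxillary process asked how the family changes when the splicing factor Srsf3 is targeted in the neural crest. None of the 10 genes passed the test. On the CPM scale (explained above) Sema3c had lower values in all 3 cKO-labelled libraries, and Plxnd1 and Sema3g had higher ones. Each difference reached an unadjusted p under 0.05 only, and in TPM the Plxnd1 and Sema3g groups overlapped. Endothelial markers were higher in the same libraries. The controls here are also those of the tissue comparison, so the values of the 2 comparisons are not independent.

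Of 14254 genes tested, 12 (0.0842%) passed an FDR of 0.05 in edgeR, and 0 of the 10 genes did. DESeq2 called 356 genes and also 0 of the 10. An unadjusted p under 0.05 was reached by 4 of the 10 genes, against 12.2% of all genes, and the groups did not overlap on the CPM scale for 4, against 18.1%.

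Sema3c had 9.36, 9.67 and 9.64 CPM in the controls and 7.08, 4.67 and 3.61 CPM in the cKO-labelled libraries. All 3 of the latter were below the controls (log2 fold change -0.90, SE 0.26, adjusted p = 0.2917, edgeR). Plxnd1 had 261, 262 and 249 CPM in the controls and 585, 375 and 291 CPM in the cKO-labelled libraries. The log2 fold change came to 0.70 (SE 0.23, adjusted p = 0.3295, edgeR), and 0.37 without the highest library. On the TPM scale the Plxnd1 groups overlapped, with 61.9 to 75.8 TPM in the controls and a lowest value of 69.0 TPM in the others.

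Sema3g had 6.68, 6.37 and 7.66 CPM in the controls and 14.2, 8.07 and 9.96 CPM in the cKO-labelled libraries (log2 fold change 0.63, SE 0.24, adjusted p = 0.3793, edgeR), and the change was 0.38 without the first of these libraries. Sema3a had 34.8, 43.9 and 51.3 CPM against 72.8, 50.6 and 59.3 CPM, ranges that overlapped (0.49, SE 0.18, adjusted p = 0.3697). Sema3f had 123, 124 and 147 CPM against 113, 104 and 119 CPM, without overlap but with a log2 fold change of only -0.23 (adjusted p = 0.4268, edgeR). Its groups did overlap in TPM, with a lowest value of 90.8 TPM in the controls and up to 92.4 TPM in the others. Nrp1 (log2 fold change -0.32, 95% interval from -0.89 to 0.26) and Nrp2 (-0.20, 95% interval from -0.73 to 0.33) overlapped between the groups. So did Sema3b (-0.56), Sema3d (0.31) and Sema3e (1.37, with 0.584 to 2.63 CPM in the cKO-labelled libraries).

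Summed endothelial markers were 326 to 345 TPM in the controls and 758, 469 and 413 TPM in the cKO-labelled libraries. All 16 markers had log2 fold changes above 0, 14 of them with an unadjusted p under 0.05, and 0 passed an FDR of 0.05. The order of these sums over the 3 libraries was also the order of their Plxnd1 values, while for Sema3g the library with the highest sum was highest (14.2 CPM) and the other two ran the opposite way (8.07 CPM at 469 TPM and 9.96 CPM at 413 TPM). Plxnd1 and Sema3g are expressed in endothelium as background knowledge, and the part of endothelium in their values was not tested. Periocular mesenchyme markers also differed, with sums of 18.2 to 38.6 TPM in the controls and 106 to 242 TPM in the cKO-labelled libraries, and 2 of 7, Foxd1 and Pou3f4, rose (picked with values in view). Mesenchyme markers had lower values for 9 of 10 genes, with 0 past the threshold.

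Among the partner genes 0 passed an FDR of 0.05 in this comparison. All 8 genes of vascular endothelial growth factor ligands and receptors had log2 fold changes above 0, 5 of them with an unadjusted p under 0.05, while 12.2% of all genes reached that p. The endothelial markers given above were also higher in these libraries, and the part of endothelium in these values was not tested. Vegfa had 0.39 (adjusted p = 0.7338, edgeR). The A plexins had log2 fold changes of 0.07 for Plxna1, -0.96 for Plxna2 (adjusted p = 0.3468), -0.11 for Plxna3 and -1.29 for Plxna4 (adjusted p = 0.3909). The lowest adjusted p of all partners was that of Dpysl3, an effector of semaphorin-induced growth cone collapse (log2 fold change -1.05, adjusted p = 0.08776, edgeR), with L1cam next (-1.12, adjusted p = 0.1107). Both were picked with their values in view. Neuron markers had log2 fold changes below 0 for 7 of 7 genes tested, of 15 listed (median -0.48, 2 with an unadjusted p under 0.05) and neural crest glia markers for 7 of 8 (median -0.81, 3 with such a p), with 0 past the FDR. Summed neuron markers were 138, 138 and 241 TPM in the controls and 125, 137 and 126 TPM in the cKO-labelled libraries, so control library 3 stood apart. The part of neurons and glia in the values of Plxna2, Plxna4, Dpysl3 and L1cam was not tested.

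The comparison of PI3K with wild-type palatal shelf asked how the family depends on the signal from the PDGFRα receptor to phosphatidylinositol 3-kinase. None of the 10 genes passed the test, and 5 had log2 fold changes above 0 and 5 below. Sema3g was higher in every PI3K library than in any wild-type one. The wild-type libraries here are also those of the tissue comparison.

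Of 16525 genes tested 0 (0%) passed an FDR of 0.05 in edgeR, with a smallest adjusted p of 0.9997, and DESeq2 called 5 genes, none of them among the 10. Without adjustment 354 genes (2.14%) had a p under 0.05, and so did 1 of the 10, Sema3g. The groups did not overlap for 1030 genes (6.23%) and for 1 of the 10, again Sema3g. It had 9.10, 9.08 and 10.5 CPM in wild-type libraries and 13.2, 15.7 and 14.5 CPM in PI3K libraries. The log2 fold change was 0.60 (SE 0.14, 95% interval from 0.28 to 0.92, adjusted p = 0.9997, edgeR), and Sema3g ranked 10 of all genes by p. Summed endothelial markers were 419 to 460 TPM in wild-type and 466 to 511 TPM in PI3K libraries, and their part in the Sema3g value was not tested.

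The other 9 genes overlapped between the groups. Sema3a had 132, 80.3 and 101 CPM in wild-type and 148, 163 and 109 CPM in PI3K libraries (log2 fold change 0.42, SE 0.21). Nrp2 had 382, 210 and 277 CPM against 355, 426 and 347 CPM (0.38, SE 0.21). Intervals were narrowest for Plxnd1 (log2 fold change -0.05, 95% interval from -0.29 to 0.20), Sema3f (0.11, from -0.22 to 0.44) and Nrp1 (-0.08, from -0.43 to 0.26), and widest for Sema3b (-0.54, from -2.54 to 1.45). Sema3e (-0.39, from -1.21 to 0.43), Sema3d (0.13, from -0.40 to 0.66) and Sema3c (-0.09, from -0.46 to 0.29) lay between these.

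Of the partner genes 0 passed in this comparison. Plxna2 (log2 fold change 0.59) and Plxna4 (0.94) were the A plexins with an unadjusted p under 0.05 (edgeR), while Plxna1 had -0.16 and Plxna3 0.00. Vegfa had 0.96, with a wide interval from -0.39 to 2.30. Neuron and glia markers had medians of 0.45 and 0.55 on the log2 scale here, beside -0.01 for all genes, with 0 past the threshold, and all 11 skeletal muscle markers had log2 fold changes above 0. Their part in the A plexin values was not tested.

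Because the series concerns splicing, the length of the counted transcripts was examined as a readout separate from the gene total. The estimated count of a gene divided by its TPM equals its effective length times a factor that all genes of a library share and that moves with depth. Each value was therefore set against the median gene of its library. What remains can move with the mix of long and short transcripts, and library traits that act on genes unequally were not checked. None of the 10 genes passed an FDR of 0.05 in limma in any comparison. The genes that passed were 0.00775% of 12907 tested with the PI3K allele, 0.00909% of 11002 in Srsf3 cKO and 9.09% of 11093 between tissues. Sema3b and Sema3e had too few maxillary counts to be tested in the last 2 comparisons.

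The nearest to the threshold was Plxnd1. Its log2 effective length, relative to the median gene of the library, had values of 1.19, 1.48 and 1.37 for control maxillary processes, and wild-type palatal shelves started at 0.92 and 0.96, with all 3 below 1.19. The difference of -0.35 (SE 0.09, adjusted p = 0.07441, limma) did not pass, equals an effective length lower by 21.7%, and its cause was not tested. Count and TPM parted for Plxnd1: the log2 fold change between tissues was 0.24 on counts and 0.75 with limma on log2(TPM + 1). The latter passed (adjusted p = 0.001007, limma, with a range from 0.001007 to 0.3219 over the alternatives). The scales also differ in how libraries are scaled to each other, which shifts all genes, and the part of length in this gap was not tested. The annotated coding transcripts of Plxnd1 run from 700 to 6907 bases. Sema3d was next, at 1.34 to 1.35 for the controls against 1.16 to 1.29 for the palatal shelf (difference -0.13, SE 0.04, adjusted p = 0.08122, limma). In the Srsf3 comparison the Plxnd1 effective length spread widely within groups (from 1.19 to 1.48 among the controls, with the cKO-labelled range overlapping it), and the difference of 0.05 (SE 0.12) did not pass.

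For each of the 10 genes the 3 protein-coding genes most alike across the 12 libraries were listed by Pearson correlation of log2(TPM + 1), as a description. The 12 points share 4 groups and 2 tissues, and no p is given. The genes most like Sema3e were Krt5 (r = 0.995), Krt17 and Hspb8, of which the keratins are epithelial. Sema3d was most like Nav3 (r = 0.995), Sema3a most like Acta2 (0.981), Sema3c most like Npepl1 (0.985) and Nrp1 most like Cuedc1 (0.983). Sema3b was most like Ifitm5 (0.931) and Panx3 (0.929), which are known from osteoblasts and hypertrophic cartilage. Sema3g had Crem (0.934) and Pgf (0.915), Sema3f had Tbc1d5 (0.953), Plxnd1 had M6pr (0.928) and the endothelial protocadherin Pcdh12 (0.925), and Nrp2 had Zeb2 (0.865). With log2 CPM in place of log2(TPM + 1), 5 of the 30 pairs were shared, and Krt5, Krt17, Ifitm5, Panx3 and Pcdh12 were not among them. On that scale the genes most like Sema3e were Hspb1, Wnt4 and Bcam, those most like Sema3b were Extl2, Egr3 and Sgms2, and those most like Plxnd1 were Gimap6, Emcn and Gdpd5.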

How the data were processed

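RNA of 12 mouse libraries was sequenced after polyA selection, per the labels' protocols. The deposited tables hold estimated counts and TPM values per gene, made by the authors. The submitters' processing notes name Salmon 1.1.0, STAR 2.7.0, DESeq2 1.28.1 and build mm10, without their roles. Of 53392 identifiers 53355 matched GENCODE M21 (GRCm38), and 0 columns lacked a sample. After rounding, estimated counts went into edgeR 4.0.16 (R 4.3.3): quasi-likelihood F-test, TMM, default filter on low counts, Benjamini-Hochberg adjustment over all genes tested and FDR 0.05, each comparison on its own 6 libraries. Effective length was tested with limma 3.58.1 on genes with at least 50 counts in all 6 libraries, centred on the median gene. The scripts were tested on simulated data. Named are the 10 genes, Plxna1 to Plxna4, Vegfa and, per comparison, at most 5 other partner genes past the FDR with the largest change, besides those said to be picked with values in view. The values of 1 partner gene that this rule names are not reported here. The genes and lists were chosen with earlier results of these data known. No replicate pair agreed within sampling noise (lowest chi-square over its degrees of freedom 11.7), and each library counted as 1 replicate. Alternatives were other normalisations, filters, FDR 0.1, DESeq2 1.42.0, a log2(TPM) scale in limma with a pseudocount of 1 or 0.1, the replicate number as a block, all 12 libraries in 1 fit, and leaving out each library.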

Additional observations from a re-analysis of the deposited data

How the results depend on the processing

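The 5 calls between wild-type palatal shelf and control maxillary process (Sema3a, Sema3c, Sema3d, Sema3e and Nrp1) passed under every alternative run, and 0 of the 10 genes passed in the other comparisons under those alternatives. An FDR of 0.1 gave 8 of the 10 genes between tissues. In the PI3K comparison DESeq2 called 5 genes. In the Srsf3 cKO comparison the count of genes was 36 at an FDR of 0.1, 143 without a filter on low counts, 356 with DESeq2 and 105 with all 12 libraries in 1 fit, and leaving out 1 library gave 2 (without control library 2) to 29 (without cKO library 1), with 6 and 3 without control libraries 1 and 3 and 4 without cKO library 2. With the replicate block it was 40, against 12. Deviations of same-numbered libraries had correlations from -0.22 to 0.53 in the PI3K, 0.08 to 0.23 in the Srsf3 cKO and -0.14 to 0.03 in the tissue comparison. The highest correlations between different numbers were 0.40, 0.14 and 0.13 in that order, and 1, 2 and 1 of the 3 numbers matched best with themselves. So few libraries cannot tell whether the numbers pair the samples. The block called 6835 genes and 5 of the 10 between tissues, and 0 genes for PI3K. In the libraries of the mutants, Nrp2 (0.05376) and Plxnd1 (-0.5185) changed sign between tissues. Effective length at an FDR of 0.1 called 2 of the 10 genes between tissues. Without centring on the median gene, every gene tested among the 10 shifts by the same amount (0.787 between tissues, 0.262 in Srsf3 cKO and -0.011 with the PI3K allele), the library factor that centring removes, so the 8 calls between tissues and the turned signs that result say nothing about transcript length. The values were turned for Sema3a (0.7036), Sema3c (0.7172), Sema3d (0.6526) and Plxnd1 (0.4342) between tissues, for Sema3c (0.1547) and Sema3f (0.2061) in Srsf3 cKO, and for Sema3g (-0.005801), Nrp1 (-0.006096) and Nrp2 (-0.003193) with the PI3K allele. Leaving out 1 library turned the sign of log2 fold changes that had not passed. With the PI3K allele these ran from -1.578 to 0.6497 for Sema3b, -0.2631 to 0.01567 for Sema3c, -0.1763 to 0.3164 for Sema3d, -0.2012 to 0.03389 for Nrp1 and -0.08837 to 0.03766 for Plxnd1. In Srsf3 cKO they ran from -0.3074 to 0.8168 for Sema3d and -0.3729 to 0.01398 for Nrp2. Effective length differences ran, with the PI3K allele, from -0.008077 to 0.08232 for Sema3b, -0.1033 to 0.086 for Sema3c, -0.04085 to 0.02283 for Sema3d, -0.0003421 to 0.01112 for Sema3g, -0.001057 to 0.01061 for Nrp1 and -0.02335 to 0.1696 for Plxnd1. In Srsf3 cKO they ran from -0.1659 to 0.005559 for Sema3c, -0.004381 to 0.006946 for Nrp1, -0.002894 to 0.01386 for Nrp2 and -0.03171 to 0.1398 for Plxnd1, and between tissues from -0.1128 to 0.01118 for Sema3c. The cause of the changes other than those without centring was not tested. Depth limits Sema3e most, with 3 to 21 counts in each control maxillary library.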
